A study of Homo sapiens with 6 samples.

Results

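The genes described here were 8 metallothioneins (MT1A, MT1E, MT1F, MT1G, MT1H, MT1M, MT1X and MT2A), the zinc exporter SLC30A1 and the metal-responsive transcription factor MTF1, 10 of the 60658 genes in the files. They were chosen by name from their measured values in these libraries, in which metallothioneins had stood out among the genes higher with both inhibitors, so their changes with inhibitor are given as a description. RNA was sequenced from CWR22Rv1 cells, a castration-resistant prostate cancer line, and from C4-2B MDVR cells, an enzalutamide-resistant line derived from C4-2B. Each line received the DMSO vehicle, 10 µM apoptozole (APO) or 10 µM VER155008 (VER) for 48 h. Both compounds are inhibitors of the chaperone HSP70, and the question was what each does to the RNA of these cells. The C4-2B MDVR cells of all 3 groups came from a line maintained with 20 µM enzalutamide in the medium, and CWR22Rv1 cells were kept without it. Whether enzalutamide was also present during the 48 h of treatment is not stated in the paper. Enzalutamide and line therefore cannot be told apart in a comparison of the lines. The C4-2B MDVR libraries carry a source label of LNCaP-C4-2B and of a parental line, whereas their titles name C4-2B MDVR, and the titles were followed. Each of the 6 conditions is represented by 1 library. No difference within a line has a replicate check or an error. A fit of treatment with the lines as blocks was not made, since the genes were chosen from these same values, and whether neighbours in an order of levels differ beyond the spread between samples is not known.

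Metallothioneins are small, cysteine-rich proteins that bind zinc, copper and cadmium and are encoded by a row of similar genes on chromosome 16. When free zinc rises, MTF1 binds short metal response elements in the promoters of the metallothioneins and of SLC30A1, which moves zinc out of the cell across the plasma membrane. The luminal epithelium of the prostate is known for a high zinc content, which prostate cancers lose. Metallothionein genes are also known to respond to oxidative stress and to glucocorticoids.

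Values are FPKM, fragments scaled by the length of the transcript and by library size, here with the authors' scaling between libraries. This scaling is meant to let levels be set side by side between genes of different length. The length it used for each gene is not known, and the annotated transcripts of MT1X, for example, run from 450 to 1727 bases. Comparisons of level between genes are thus less certain than those of a gene between libraries. A fold or log2 fold change is the ratio of FPKM + 0.1 in 2 libraries, which understates changes of genes near 0.1 FPKM, and no fold is given where a library lists a gene at 0. Against the C4-2B MDVR DMSO library, taken as 1, the relative depth of the other libraries was 1.14 to 1.64. Between 17603 and 19376 genes were above 0.1 FPKM. Mitochondrial genes held 14.8 to 16.4% of all FPKM in the C4-2B MDVR line and 25.7% in CWR22Rv1 cells with DMSO or VER, but 10.4% with APO, and the part of this in the CWR22Rv1 APO values was not tested. All 8 markers of prostate luminal epithelium were at 2.33 FPKM or more in every library, but not at constant levels. KLK3, the gene of prostate-specific antigen, was at 77.8, 8.84 and 24.4 FPKM with DMSO, APO and VER in the C4-2B MDVR line and at 30.2, 2.33 and 22.7 FPKM in CWR22Rv1 cells, and KLK2 was at 229, 15.9 and 46.5 and at 83.4, 7.91 and 52.0 FPKM. The keratin KRT8 was at 219, 335 and 243 FPKM and at 184, 244 and 147 FPKM. The 8 summed to 1172, 886 and 921 FPKM and to 784, 834 and 714 FPKM. Of 11 markers of basal, fibroblast, endothelial and white blood cells, KRT5, TP63 and PECAM1 were listed at 0 throughout. The 11 summed to 9.46, 14.9 and 13.0 FPKM with DMSO, APO and VER in the C4-2B MDVR line and to 5.55, 5.86 and 5.81 FPKM in CWR22Rv1 cells, with COL1A1 as the highest at up to 10.8 FPKM. The part of either set of markers in the values below was not tested.

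The 8 metallothioneins lie on chromosome 16 within a cluster of 119 kb that runs from MT4 to MT1X (chr16:56565049-56684196, GRCh38, GENCODE 29). MT2A is at chr16:56608199-56609497, MT1E at chr16:56625475-56627112, MT1M at chr16:56632233-56633986, MT1A at chr16:56638666-56640087, MT1F at chr16:56657694-56660698, MT1H at chr16:56669814-56671129 and MT1X at chr16:56682424-56684196, all on the plus strand. MT1G, at chr16:56666731-56668065, is the member on the minus strand and lies head to head with MT1H. SLC30A1 (chr1:211571568-211578742) and MTF1 (chr1:37809567-37859620) are on the minus strand of chromosome 1. RefSeq promoter windows on GRCh38.p14 were at hand for 5 of the 10 members, MT1H, MT1X, MT2A, SLC30A1 and MTF1. The core of the metal response element (TGCACNC or TGCGCNC) was searched on both strands in the 250 bases before each RefSeq start. It occurred 8 times before MT1H, 7 times before MT2A, 4 times before MT1X, once before SLC30A1 and at no place before MTF1. Of all 34943 windows, 24.8% held at least 1 such core, 0.369% at least 4, 0.0315% at least 7 and 0.0172% at least 8. MT1B and MT4, which were listed at 0 in all libraries, held 3 cores each, and 1.58% of windows held at least 3. The letters GAANNTTC of the heat shock element, present in 5.80% of windows, and TGATGNAA, a form of the element bound by ATF4 that was present in 3.15%, were found in none of the 5. A match is a stretch of letters and not a measured binding site. The stretches below are taken from the windows of MT1H, MT1X, MT2A and SLC30A1, and the promoters of the 5 metallothioneins without a window are not described. Each core is in capitals, also where it reads on the opposite strand (as GNGTGCA or GNGCGCA). They are written 5′ to 3′ on the strand of the gene. The RefSeq start of SLC30A1 (chr1:211579161) lies upstream of the GENCODE one (chr1:211578742). The bases between these starts were not searched, so the count for SLC30A1 covers only the RefSeq window. The MT1X stretch ends where the GENCODE exon begins, and a short stretch with 1 of its 7 cores is shown for MT2A. The RefSeq start of MT2A (chr16:56608584) lies downstream of the GENCODE one, and its whole window lies within the gene as placed by GENCODE.
MT1H (chr16:56669564-56669813, plus strand): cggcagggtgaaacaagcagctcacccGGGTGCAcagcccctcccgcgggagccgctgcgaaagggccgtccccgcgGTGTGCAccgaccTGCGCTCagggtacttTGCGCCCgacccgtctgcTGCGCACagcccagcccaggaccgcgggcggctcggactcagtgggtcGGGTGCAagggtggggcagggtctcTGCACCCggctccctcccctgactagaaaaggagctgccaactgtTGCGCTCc
MT1X (chr16:56682220-56682423, plus strand): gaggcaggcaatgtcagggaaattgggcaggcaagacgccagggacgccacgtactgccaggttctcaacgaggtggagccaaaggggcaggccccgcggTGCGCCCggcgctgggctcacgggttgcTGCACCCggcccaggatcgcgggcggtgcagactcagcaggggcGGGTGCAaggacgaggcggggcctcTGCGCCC
MT2A (chr16:56608520-56608546, plus strand): gcggggctttTGCACTCgtcccggctc
SLC30A1 (chr1:211579162-211579411, minus strand): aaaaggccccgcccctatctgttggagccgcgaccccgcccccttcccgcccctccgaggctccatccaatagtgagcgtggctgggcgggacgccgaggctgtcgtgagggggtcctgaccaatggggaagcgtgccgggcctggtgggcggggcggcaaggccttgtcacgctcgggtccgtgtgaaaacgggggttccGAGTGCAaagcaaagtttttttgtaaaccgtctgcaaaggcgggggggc

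MTF1, the sensor, was expressed in both lines and lay within 1.2-fold of DMSO in all 4 comparisons. Its level in the C4-2B MDVR line was 8.54 FPKM with DMSO, 7.50 after APO and 8.31 after VER. The CWR22Rv1 libraries gave 3.48, 3.37 and 3.04 FPKM. The log2 fold changes were -0.19 and -0.04 with APO and VER in the C4-2B MDVR line and -0.05 and -0.19 in CWR22Rv1 cells. Rescaling of every library to the same sum (TPM) took the first of these to -0.33, past 1.2-fold, and the third to 0.07. Between the lines MTF1 differed more than it did with either inhibitor, with a level 2.41-fold higher in C4-2B MDVR than in CWR22Rv1 cells under DMSO.

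The metallothionein RNA of both cell lines was several-fold higher with either inhibitor. The summed level of the 8 genes in the C4-2B MDVR line was 273 FPKM with DMSO, 962 after APO and 1002 after VER. The CWR22Rv1 libraries gave 289, 2639 and 1302 FPKM. The lines thus started from nearly the same sum and reached different ones, the CWR22Rv1 APO library being the highest of the 6. The sum was 3.53-fold higher with APO and 3.67-fold higher with VER in the C4-2B MDVR line (log2 1.82 and 1.88), and 9.13-fold and 4.50-fold higher in CWR22Rv1 cells (log2 3.19 and 2.17). As a share of all FPKM in the library, the 8 genes went from 0.0405% with DMSO to 0.129% with APO and 0.149% with VER in the C4-2B MDVR line, and from 0.0412% to 0.408% and 0.178% in CWR22Rv1 cells. APO and VER share the vehicle library of their line, whose error enters both folds. In such bulk RNA, more expressing cells and more RNA per cell cannot be told apart.

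MT2A and MT1X carried most of the sum under vehicle in both lines. MT2A, which is expressed in most tissues and is often the most abundant human metallothionein, was at 100.2 FPKM with DMSO, 511 after APO and 467 after VER in the C4-2B MDVR line. It was at 144, 792 and 411 FPKM in CWR22Rv1 cells. All 4 treated libraries lay well above both vehicle libraries, with log2 fold changes of 2.35 and 2.22 (APO and VER in C4-2B MDVR) and 2.46 and 1.51 (CWR22Rv1). MT1X was at 157, 335 and 396 FPKM in the C4-2B MDVR line and at 71.4, 636 and 250.2 FPKM in CWR22Rv1 cells. Its DMSO level was 2.20-fold higher in the C4-2B MDVR line, while its highest level was that of CWR22Rv1 cells with APO. The log2 fold change of MT1X was 1.09 and 1.34 with APO and VER in the C4-2B MDVR line, the smallest of the 3 abundant metallothioneins there, and 3.16 and 1.81 in CWR22Rv1 cells.

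MT1F was the third abundant metallothionein of C4-2B MDVR cells, with 14.8 FPKM under DMSO, 114 with APO and 137 with VER. It was scarcer in the CWR22Rv1 libraries, with 2.13, 12.1 and 13.5 FPKM. The gap between the lines under DMSO was 6.69-fold, yet the log2 fold changes lay within a narrow range, at 2.94 and 3.20 in C4-2B MDVR and 2.46 and 2.60 in CWR22Rv1 cells. It was the member whose folds were most alike across the 4 comparisons among the metallothioneins above 0.5 FPKM in both vehicle libraries, and VER was slightly above APO in both lines.

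**Figure D1:**
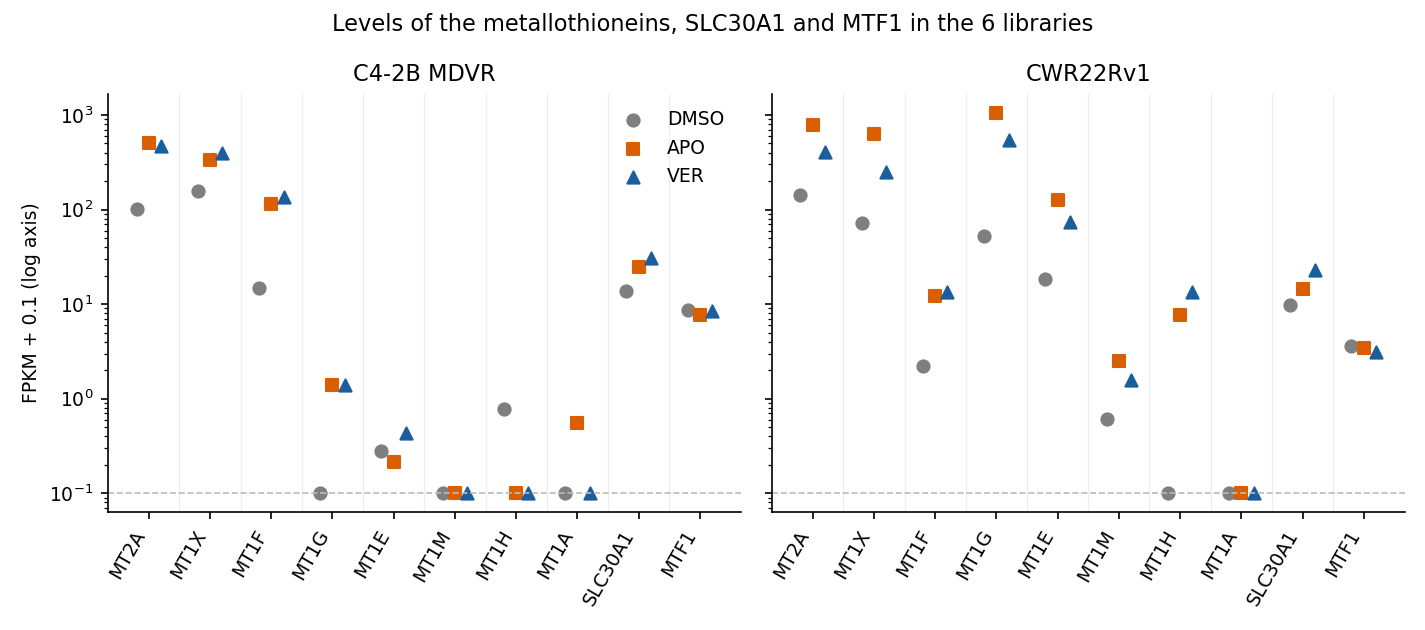
FPKM + 0.1 (log axis) of the 10 genes in C4-2B MDVR (left) and CWR22Rv1 cells (right), 1 point per library, with DMSO as circles, APO as squares and VER as triangles; points on the dashed line at 0.1 are genes listed at 0. MT2A, MT1X and MT1F have higher treated than vehicle points in both lines, MT1G and MT1E reach over 50 FPKM in CWR22Rv1 cells alone, and the MTF1 points of a line nearly coincide.

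MT1G and MT1E separated the lines most. Under DMSO the C4-2B MDVR library listed MT1G at 0, and it reached 1.31 FPKM with APO and 1.30 with VER. The CWR22Rv1 libraries gave 52.8 FPKM with DMSO, 1062 after APO and 539.7 after VER. With either inhibitor it was the most abundant metallothionein of CWR22Rv1 cells, and its log2 fold changes of 4.33 and 3.35 exceeded those of every other member that was not listed at 0 under DMSO in that line. MT1E was at 0.182, 0.114 and 0.331 FPKM in the C4-2B MDVR line and at 18.6, 127 and 73.5 FPKM in CWR22Rv1 cells. The DMSO level was thus 66.1-fold higher in CWR22Rv1 cells, where the log2 fold changes of MT1E were 2.77 with APO and 1.98 with VER. Its log2 fold changes in the C4-2B MDVR line, -0.40 and 0.61, rest on values as low as the lowest of short genes. MT1E has 3 annotated transcripts of 332 to 729 bases, so short genes are only a guide to its floor. Among 2148 genes with a single transcript of 380 to 440 bases, the fifth percentile of values above 0.01 FPKM was 0.375, 0.244 and 0.359 FPKM in these 3 libraries, above the MT1E value in each.

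The remaining metallothioneins were scarce. MT1H, the neighbour of MT1G, was listed at 0 in CWR22Rv1 cells with DMSO and was at 7.65 FPKM with APO and 13.3 with VER. The pattern was opposite in the C4-2B MDVR line, with 0.671 FPKM under DMSO and a listing at 0 with both inhibitors. That direction rests on a single low value, as the fifth percentile of short genes in the DMSO library was 0.375 FPKM. MT1M was listed at 0 in the 3 C4-2B MDVR libraries and was at 0.511, 2.41 and 1.48 FPKM in CWR22Rv1 cells with DMSO, APO and VER, log2 fold changes of 2.04 and 1.37. MT1A was above 0 in 1 library, at 0.457 FPKM in the C4-2B MDVR line with APO. The fifth percentile of short genes in that library was 0.244 FPKM, so this value is near the low end of what genes of this length take there.

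The makeup of the sum differed between the lines at every condition. MT2A, MT1X and MT1F together made up 99.7%, 99.8% and 99.8% of it in the C4-2B MDVR line with DMSO, APO and VER. In CWR22Rv1 cells the same 3 genes held 75.1%, 54.6% and 51.8%. MT1G alone accounted for most of the rest there, with 18.3% of the sum under DMSO, 40.2% with APO and 41.4% with VER. The increase over DMSO was 689.5 FPKM with APO and 729.6 with VER in the C4-2B MDVR line, of which MT2A gave 59.6% and 50.3%. In CWR22Rv1 cells the increase was 2350.5 and 1013 FPKM, of which MT1G gave 42.9% and 48.1%.

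**Figure D2:**
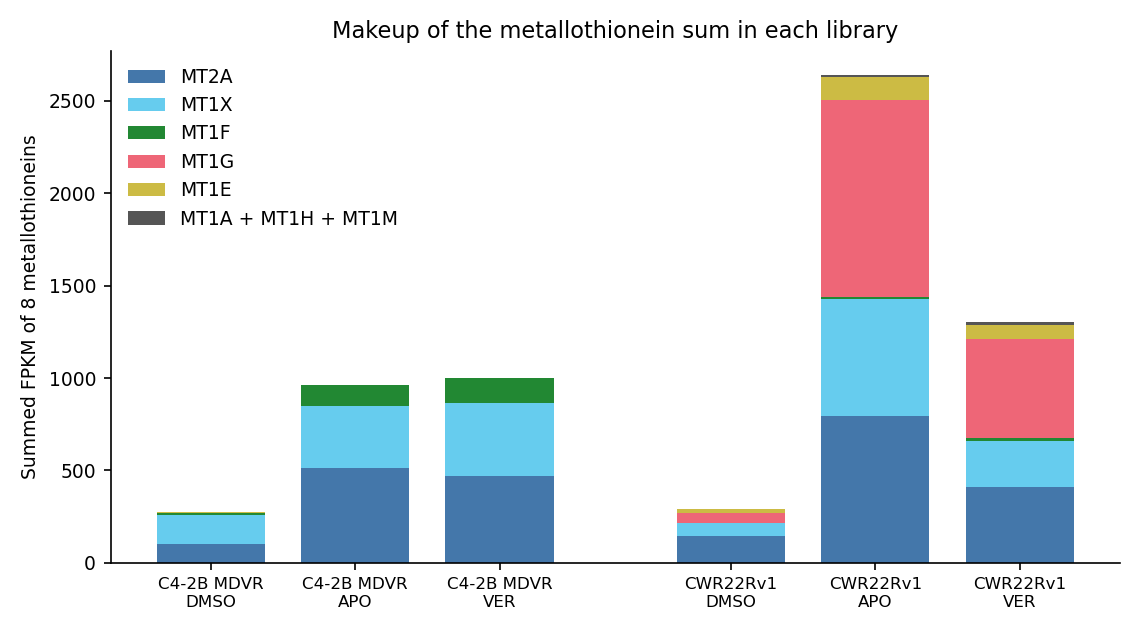
Summed FPKM of the 8 metallothioneins in each library, with the part of each gene stacked; MT1A, MT1H and MT1M are drawn together. The vehicle bars are nearly equal at 273 and 289 FPKM, the bar of CWR22Rv1 cells with APO is the tallest at 2639 FPKM, and MT1G is visible in CWR22Rv1 cells only.

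SLC30A1, the exporter, was higher with both inhibitors in both lines, by a smaller fold than MT2A, MT1X and MT1F in every comparison. Its level in the C4-2B MDVR line was 13.7 FPKM with DMSO, 24.6 after APO and 30.9 after VER. The CWR22Rv1 libraries gave 9.78, 14.5 and 23.0 FPKM. VER gave the highest value in each line, and all 4 treated libraries were above both vehicle libraries. The log2 fold changes were 0.85 and 1.17 with APO and VER in the C4-2B MDVR line and 0.56 and 1.23 in CWR22Rv1 cells.

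**Figure D3:**
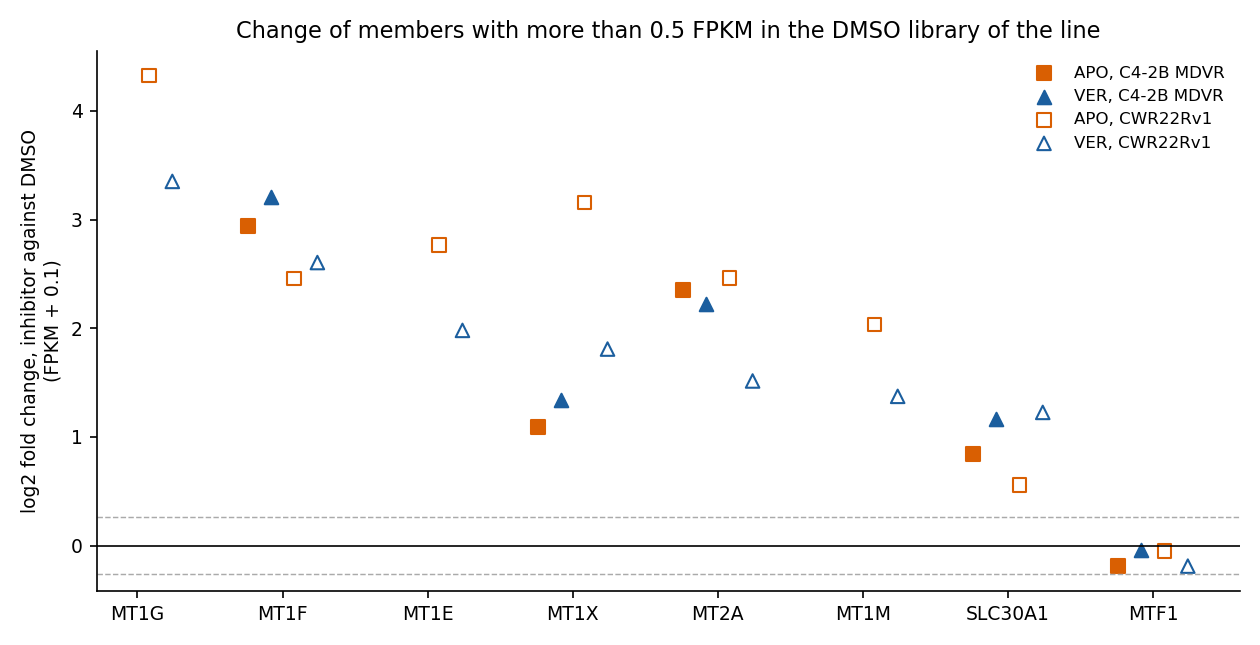
Log2 fold change of FPKM + 0.1 against DMSO for each gene above 0.5 FPKM in the DMSO library of the line and above 0 in the treated ones, with filled symbols for C4-2B MDVR, open symbols for CWR22Rv1, squares for APO and triangles for VER; dashed lines mark 1.2-fold. Metallothionein points run from 1.09 for MT1X to 4.33 for MT1G, those of SLC30A1 lie between 0.56 and 1.23, and those of MTF1 lie inside the dashed lines.

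Counts of members are set beside all genes that passed the same filter, above 0.1 FPKM in 1 or more of a line's 3 libraries. Of the 10 members 9 passed in each line, MT1M being left out in C4-2B MDVR and MT1A in CWR22Rv1 cells. More than 1.2-fold higher were 6 members with APO and 6 with VER in the C4-2B MDVR line, and 8 and 8 in CWR22Rv1 cells. Of all 20122 genes in the C4-2B MDVR line 37.7% and 35.6% were higher by that fold with APO and VER, and of 21608 genes in CWR22Rv1 cells 35.6% and 32.1%. More than 1.2-fold lower were MT1E and MT1H with APO and MT1H with VER in the C4-2B MDVR line and no member in CWR22Rv1 cells. Of all genes 35.4% and 34.9% were lower with APO and VER in the former and 39.2% and 32.3% in the latter. At 2-fold, 5, 5, 7 and 8 members were higher, beside 15.4%, 14.4%, 13.8% and 10.8% of all genes, and MT1H was lower in both comparisons of C4-2B MDVR cells, beside 13.3% and 13.3% there and 16.8% and 8.92% in CWR22Rv1 cells. The counts include MT1A, MT1G and MT1H, which were listed at 0 in 1 of the libraries compared. Since the members were chosen from these same contrasts, nothing is read from their counts.

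At the matched dose of 10 µM and 48 h, APO and VER gave nearly the same metallothionein sum in the C4-2B MDVR line and different sums in CWR22Rv1 cells. In C4-2B MDVR cells the sum with VER was 1.04-fold that with APO. In CWR22Rv1 cells the sum with APO was 2.03-fold that with VER. The excess with APO in CWR22Rv1 cells was 2.54-fold for MT1X, 1.97-fold for MT1G, 1.93-fold for MT2A and 1.73-fold for MT1E. MT1F did not share it, with a level 1.11-fold higher with VER, nor did MT1H, with 1.73-fold more with VER. SLC30A1 followed the opposite order to the sum in CWR22Rv1 cells, being 1.59-fold higher with VER than with APO, and was 1.25-fold higher with VER in the C4-2B MDVR line. APO and VER are not analogs of each other, and with 1 library each the error of these ratios is unknown.

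Most of the other metallothionein genes, on chromosome 16 and elsewhere, gave no signal. The files hold 21 metallothionein genes and pseudogenes, and 10 of the 13 outside the members were listed at 0 in all 6 libraries. MT3, the brain metallothionein, was at 0.549 FPKM with DMSO and 0.530 with VER in the C4-2B MDVR line and at 2.60 and 2.47 FPKM in CWR22Rv1 cells, and was listed at 0 with APO in both lines. The pseudogene MT1L was at 3.37, 2.87 and 5.63 FPKM in CWR22Rv1 cells with DMSO, APO and VER and was listed at 0 in the C4-2B MDVR line. Another pseudogene, MT1IP, was at 13.6 FPKM in the CWR22Rv1 DMSO library and at 0 in the other 5.

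Since similar genes can share reads, their transcripts were compared for identical stretches. No member shared a run of 150 bases, the read length, with another of the 21 genes. The longest runs shared by the members were 64 to 109 bases, the longest being that of MT1H with MT1HL1, and a run of 75 bases was shared by 5 of the 8. Only exact matches were searched, and how the authors' counting divided reads that fit several genes is not known, so the split among single metallothioneins is less certain than their sum. MT1X is overlapped on its own strand by the noncoding gene AC026461.1, whose listed values were practically 0.

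Genes beside the cluster did not share one pattern. Of the 12 protein-coding genes within 500 kb on either side 10 passed the filter in each line. More than 1.2-fold higher were 6, 3, 4 and 3 of them and lower were 1, 5, 4 and 4 (APO and VER in C4-2B MDVR, then in CWR22Rv1), with medians of the log2 fold change of 0.41, -0.27, 0.20 and -0.04 against -0.01 to 0.00 over all genes. HERPUD1, a gene of the degradation of misfolded proteins of the endoplasmic reticulum, was the neighbour with the highest fold in each comparison. It was at 58.2 FPKM with DMSO, 215 after APO and 209.9 after VER in the C4-2B MDVR line and at 91.1, 182 and 172 FPKM in CWR22Rv1 cells. NUP93, a part of the nuclear pore, lay lower in all 4 comparisons, with log2 fold changes of -0.57, -0.97, -0.35 and -0.64. CPNE2, a copine, went from 8.54 FPKM with DMSO to 4.001 with APO in CWR22Rv1 cells, the lowest fold there. The G protein subunit GNAO1 had the lowest fold with VER in each line, at 0.418, 0.760 and 0.0433 FPKM in the C4-2B MDVR line and 1.13, 0.568 and 0.374 FPKM in CWR22Rv1 cells with DMSO, APO and VER.

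**Figure D4:**
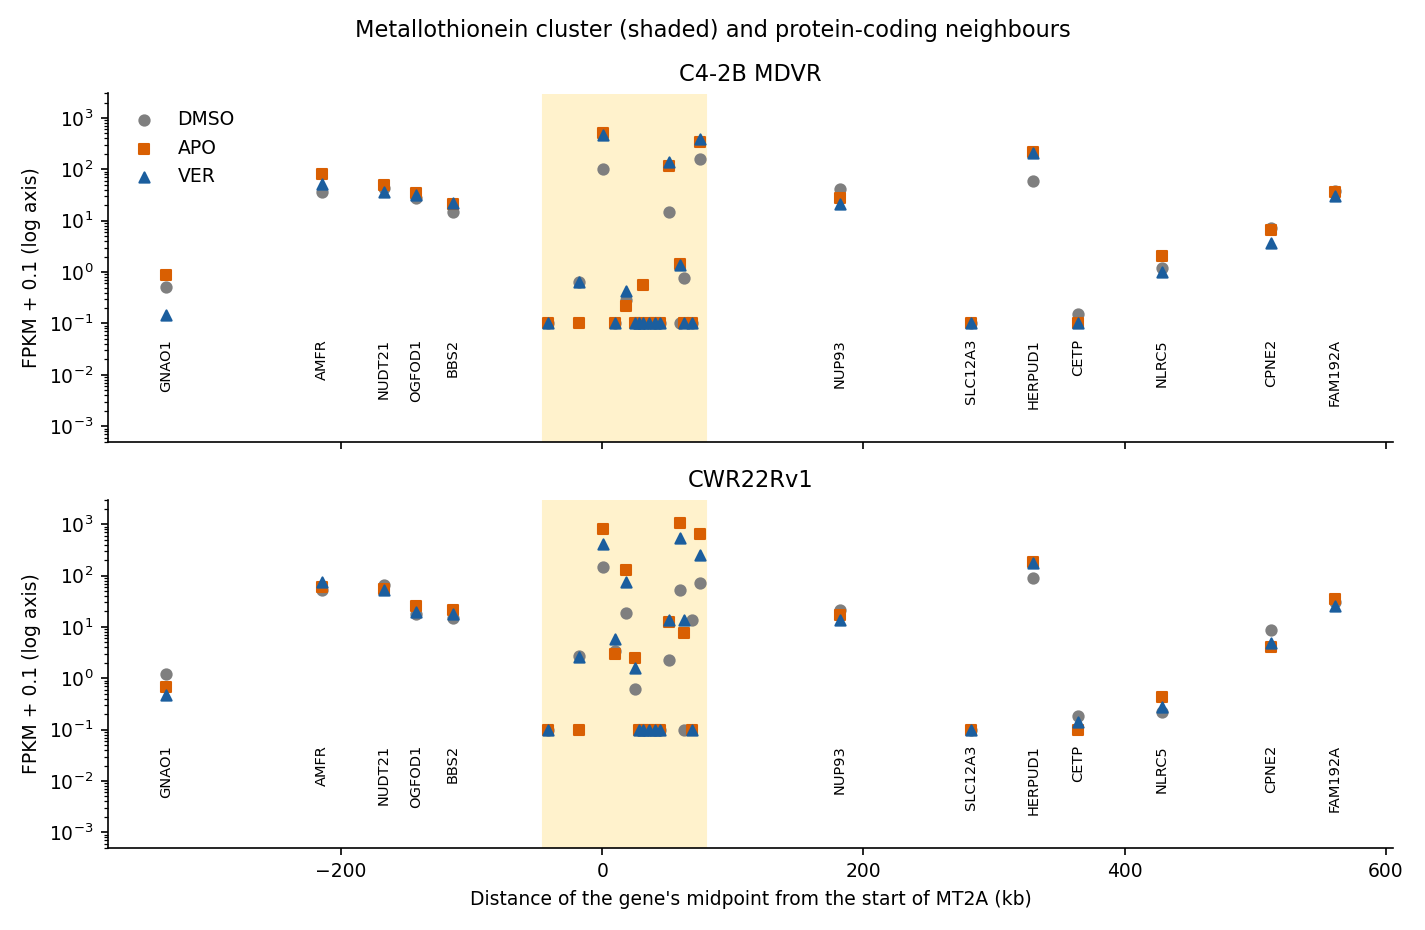
FPKM + 0.1 (log axis) of the metallothionein genes (shaded) and of the named protein-coding neighbours against the distance of each gene's midpoint from the start of MT2A in kb, with C4-2B MDVR above and CWR22Rv1 below, and DMSO as circles, APO as squares and VER as triangles. Inside the shaded cluster the treated points of MT2A, MT1F and MT1X lie above the vehicle point, and of the neighbours outside it HERPUD1 is farthest above its vehicle point in the C4-2B MDVR line.

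Other zinc transporters were examined as the wider pathway of SLC30A1, in a list of 24 genes (SLC30A2 to SLC30A10, SLC39A1 to SLC39A14 and TMEM163), of which 22 passed the filter in each line. SLC30 proteins carry zinc out of the cytoplasm and SLC39 proteins into it. With APO and VER in the C4-2B MDVR line 12 and 13 were more than 1.2-fold higher and 5 and 5 lower, with medians of the log2 fold change of 0.46 and 0.34 against 0.00 over all genes. In CWR22Rv1 cells APO and VER differed, with 5 higher and 7 lower under APO (median -0.12) and 14 higher and 4 lower under VER (median 0.37). For these counts and those of the lists below, the shares of all genes past the same folds are the ones given above for the members. Past 2-fold, 3, 4, 2 and 2 were higher and 3, 3, 2 and 1 lower. The exporter with the highest fold in every comparison was SLC30A2, known for loading zinc into secretory vesicles. Its level was 0.425 FPKM with DMSO, 8.12 after APO and 7.49 after VER in the C4-2B MDVR line and 0.624, 2.34 and 1.97 FPKM in CWR22Rv1 cells, log2 fold changes of 3.97, 3.85, 1.76 and 1.52.

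Importers differed in direction. SLC39A8, which carries zinc, manganese and cadmium into cells, was at 76.4, 30.7 and 35.1 FPKM with DMSO, APO and VER in the C4-2B MDVR line and at 54.6, 25.6 and 35.9 FPKM in CWR22Rv1 cells. It was lower in all 4 treated libraries, with log2 fold changes of -1.31, -1.12, -1.09 and -0.60. SLC39A10, another zinc importer, was lower in the C4-2B MDVR line (log2 -1.05 with APO and -1.31 with VER), while the log2 fold changes in CWR22Rv1 cells were -0.19 and 0.52. SLC39A5 and SLC39A2, with the lowest folds under APO and VER in CWR22Rv1 cells, stayed under 0.5 FPKM in all libraries. Further importers were chosen after their values were seen. SLC39A14 was higher in all 4 treated libraries, with log2 fold changes of 0.89, 0.55, 0.22 and 0.40. SLC39A4 was lower in all 4, at -0.66, -0.51, -0.15 and -0.58. The third value of each lay within 1.2-fold. SLC39A7, SLC39A11 and SLC39A13 were higher than with DMSO except with APO in CWR22Rv1 cells. Chosen after its values were seen, SLC30A4, an intracellular zinc exporter, showed a contrast between the lines, with 71.4, 29.7 and 94.9 FPKM in the C4-2B MDVR line against 0.755, 1.47 and 2.17 FPKM in CWR22Rv1 cells.

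**Figure D5:**
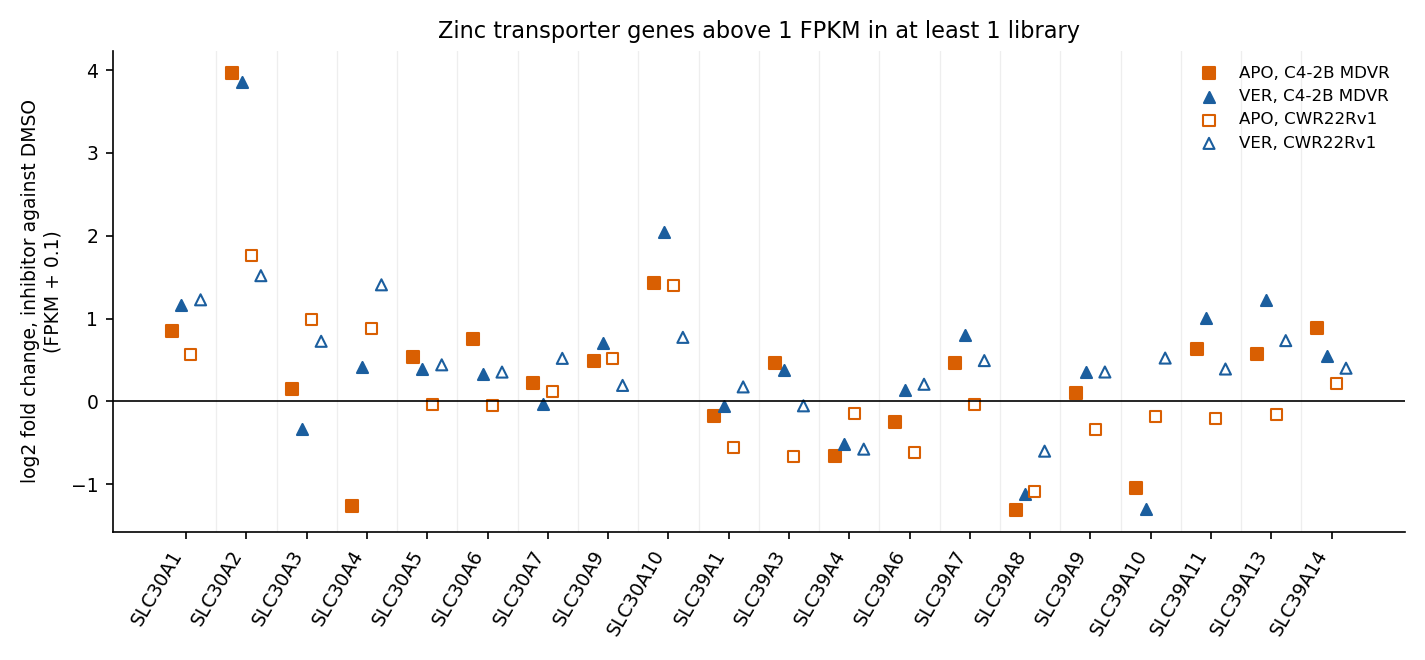
Log2 fold change of FPKM + 0.1 against DMSO for SLC30A1 and the other zinc transporters above 1 FPKM in at least 1 library, with filled symbols for C4-2B MDVR, open symbols for CWR22Rv1, squares for APO and triangles for VER. SLC30A1 and SLC30A2 are above 0 in all 4 comparisons, up to 1.23 and 3.97, as are SLC30A9, SLC30A10 and the importer SLC39A14. SLC39A8 is below 0 in all 4, down to -1.31, as is SLC39A4.

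Copper is the other metal that metallothioneins bind in cells. Of 12 genes of copper handling, 6 and 8 were more than 1.2-fold higher and 4 and 2 lower with APO and VER in the C4-2B MDVR line, and 2 and 3 higher and 7 and 5 lower in CWR22Rv1 cells, with medians of the log2 fold change of 0.21, 0.42, -0.72 and -0.03. The copper importer SLC31A1 had the highest fold in each comparison, at 32.4, 157 and 104 FPKM in C4-2B MDVR and 25.2, 86.8 and 53.2 FPKM in CWR22Rv1 cells with DMSO, APO and VER. The metalloreductase STEAP4 was at 6.99, 0.617 and 0.379 FPKM in the C4-2B MDVR line. In CWR22Rv1 cells the lowest folds were those of STEAP3, an iron reductase, with APO (5.63 to 0.846 FPKM) and of the copper chaperone ATOX1 with VER (53.3 to 31.2 FPKM).

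Genes other than metallothioneins that heavy metals are known to induce were more often higher than lower in all 4 comparisons. Their median change was larger with APO than with VER in each line. Of 11 such genes 9, 7, 7 and 6 were more than 1.2-fold higher and 2, 2, 3 and 0 lower in the 4 comparisons, with medians of the log2 fold change of 0.85, 0.48, 1.07 and 0.27. HMOX1, which breaks down heme, was at 14.1, 145 and 34.9 FPKM in the C4-2B MDVR line and at 3.89, 22.5 and 5.45 FPKM in CWR22Rv1 cells with DMSO, APO and VER. Unlike the metallothionein sum, it was higher with APO than with VER in both lines. SLC7A11, which imports cystine, was at 6.91, 100.2 and 67.0 FPKM and at 10.4, 56.5 and 32.0 FPKM. HSPA1B, a stress-induced HSP70 gene nearly identical to HSPA1A so that reads may be split between them, was at 62.1, 13.5 and 33.0 FPKM in the C4-2B MDVR line, the lowest folds of the list there with both inhibitors. In CWR22Rv1 cells both genes were lower with APO and higher with VER, with 39.2, 12.5 and 56.6 FPKM for HSPA1B and 5.79, 1.32 and 12.1 FPKM for HSPA1A. In the C4-2B MDVR line HSPA1A was at 0.0691, 0.158 and 0.0631 FPKM, so its place among the higher genes with APO rests on values near 0. DNAJB1 was also lower there with both inhibitors, at 63.2, 42.3 and 45.8 FPKM, and was at 31.9, 32.9 and 33.8 FPKM in CWR22Rv1 cells. SRXN1, an antioxidant gene, had the lowest fold under VER in CWR22Rv1 cells, at 33.8 and 29.8 FPKM.

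The glucocorticoid-induced genes differed in direction. Of the 8 genes listed, 3, 1, 3 and 2 were more than 1.2-fold higher and 4, 4, 3 and 5 lower in the 4 comparisons, with medians of the log2 fold change of -0.58, -0.74, -0.13 and -0.46. TSC22D3, which encodes the leucine zipper protein GILZ, was higher in all 4 treated libraries, at 21.01, 40.7 and 93.7 FPKM in C4-2B MDVR and 6.71, 17.9 and 39.1 FPKM in CWR22Rv1 cells. FKBP5, an HSP90 co-chaperone that androgens also induce, was lower in all 4, at 139, 22.9 and 20.6 FPKM and 111, 56.0 and 82.9 FPKM. The kinase SGK1 was at 10.3, 1.48 and 1.70 FPKM in the C4-2B MDVR line and at 2.08, 1.92 and 0.489 FPKM in CWR22Rv1 cells. With APO in CWR22Rv1 cells the highest fold of the list was that of ERRFI1, an inhibitor of the EGF receptor (12.1 to 44.2 FPKM), and the lowest that of the transcription factor ZBTB16 (17.7 to 6.98 FPKM).

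The genes whose levels were most like the metallothionein sum over the 6 libraries, of 10119 with a mean of at least 1 FPKM and a range of at least 1 on the log2 scale, were YPEL5 (Pearson r of log2 values 0.996), ZNF419 (0.993), FBXO22 (0.990), BBS12 (0.990) and ACTR10 (0.987). YPEL5 was at 10.7, 27.6 and 26.6 FPKM with DMSO, APO and VER in C4-2B MDVR and at 12.7, 51.7 and 30.7 FPKM in CWR22Rv1 cells, which is the order of the sum apart from the APO and VER libraries of C4-2B MDVR cells. The 6 points are 2 lines with 1 vehicle library each, so these values describe likeness only. With a pseudocount of 1 FPKM 4 of the 5 stayed among the first 5, and after subtraction of each line's mean 0 of them did. SLC30A1 had an r of 0.49 with the sum and MTF1 an r of -0.33.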

How the data were processed

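RNA of both lines was sequenced as 6 libraries (1 per condition, paired-end reads of 150 bases). Per the labels, libraries were made from polyadenylated RNA with a stranded kit, while the paper names another kit. The authors deposited FPKM values, scaled between libraries with Cuffnorm. The submitters' processing notes name HISAT, Cufflinks, Cuffnorm and GRCh38, and versions and annotation release are not given in the sources used here. Of 60658 identifiers, 57047 matched GENCODE 29, the source of symbols and coordinates.

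Fold changes are differences of log2(FPKM + 0.1) between libraries. Counts cover genes above 0.1 FPKM in 1 or more of a line's 3 libraries. Changes above 1.2-fold, the study's threshold, and 2-fold were counted. With 1 library per condition and no counts, no test was run, and FPKM gives no counting error. Relative depth was read from ratios of values between 0.001 and 0.05 FPKM. Members, gene lists and alternatives were chosen with earlier results of these data known. Besides the members, the genes with the highest and lowest fold change of each list in each comparison are named, and the 5 genes most correlated with the sum. Other listed genes that are named were chosen after their values were seen. The fold code (Python 3.11.15, pandas 2.3.3, numpy 2.4.6, matplotlib 3.10.9 for figures) was run on a copy of 1 library with known folds put in. That copy held no noise, so it checks the arithmetic only. Promoter sequences are from RefSeq (GRCh38.p14).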

Additional observations from a re-analysis of the deposited data

Results flagged for a closer look

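For MT1E and MT1H the treated library lay on opposite sides of DMSO in the lines, and the difference between the lines was not tested, since there is 1 library per condition. MT1E with APO differed from DMSO by -0.0678 FPKM in C4-2B MDVR cells and by 108 FPKM in CWR22Rv1 cells. MT1H differed from DMSO by -0.671 FPKM with APO and by -0.671 FPKM with VER in C4-2B MDVR cells, being listed at 0 in both, and by 7.65 FPKM with APO and 13.3 FPKM with VER in CWR22Rv1 cells. The C4-2B MDVR values of both genes are close to or below the lowest that short genes take there, 0.375 FPKM with DMSO at the fifth percentile of genes above 0.01 FPKM. Both genes also have longer transcripts than the short genes, so this is only a guide.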

How the results depend on the processing

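The alternatives were pseudocounts of 0.01 and 1 FPKM, rescaling to a median ratio of 1 or to the same sum (TPM), other filters, thresholds of 1.5-fold and 2-fold, and sums over all 21 metallothionein genes or without MT2A. The log2 fold change of the sum stayed between 1.39 and 1.82 (APO) and 1.63 and 1.89 (VER) in the C4-2B MDVR line and between 3.10 and 3.67 and 2.09 and 2.62 in CWR22Rv1 cells, and all 36 alternative counts of members stayed within 1.5 times. Of the alternative values of single members 190 kept their side of the threshold without moving, 17 moved (MT1A, MT1G, MT1H and MT1M with the pseudocount, and MT1H with APO in CWR22Rv1 cells also under TPM), 8 dropped below the threshold (MT1E in C4-2B MDVR cells, and SLC30A1 with APO at 1.5-fold in CWR22Rv1 cells or 2-fold in both lines) and MTF1 with APO in C4-2B MDVR cells passed it under TPM (-0.33). Of 36 alternative counts of zinc transporters 7 moved by over 1.5 times, all under the higher thresholds. With APO the median log2 fold change of genes above 1 FPKM was 0.00 in the C4-2B MDVR line and 0.01 in the CWR22Rv1 line as deposited, and -0.14 and 0.12 under TPM. No paired analysis was possible within a line, because its groups share 1 replicate number and hold 1 library each. The results come from no test. A fit of both lines with line as a block was not run. Depth limits mainly the metallothioneins below 1 FPKM.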
